A study of Schmidtea mediterranea with 5 samples.

Results

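A set of 110 contigs had their highest level at 6 hours post amputation (hpa) in single-cell RNA sequencing of the planarian *Schmidtea mediterranea*, strain CIW4. Contigs are the assembled transcripts on which unique molecular identifiers (UMIs, each marking 1 captured RNA molecule) were counted, and they are written here as dd_2193 for dd_Smed_v6_2193_0, with another last digit given where there is one. The members were chosen from the values themselves: at least 50 UMIs at 6 hpa and a level, in CPM with 1 added, at least 4-fold that of each of the other 4 libraries. CPM are the UMIs of a contig scaled to an equal total of UMIs in each group of barcodes. Of 28040 contigs, 9070 reached 50 UMIs at 6 hpa, and 110 of these (1.21%) met the ratio. Because these sums chose the members, the levels by library are a description and were not tested.

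The data were 5 droplet libraries, 1 for each condition, from X-insensitive cells, the cells that survive irradiation and are largely not dividing, of post-pharyngeal fragments, with many animals pooled per condition. The conditions were 0 hpa, anterior-facing wounds at 6 hpa, anterior-facing wounds at 18 hpa, posterior-facing wounds at 18 hpa, and anterior-facing wounds at 18 hpa from animals that had 4 feedings of unc-22 control dsRNA. The labels give 18 hpa for the last 3 and the study's methods give 16 hpa. By the labels the 6 hpa cells were gated on medium and high calcein and the other 4 conditions on low propidium iodide, while the study's methods name propidium iodide for the 6 hpa sample too and not for the unc-22 sample. Cells of intermediate calcein were let through at 6 hpa on the assumption that wounded cells may have leaky membranes. Time and sort can therefore not be told apart at 6 hpa, and with 1 library per condition no difference between libraries has a replicate check.

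Planarians rebuild missing parts from neoblasts, dividing stem cells, and within hours of an injury cells of the epidermis, muscle and other tissues switch on wound-induced genes. The epidermis is renewed by postmitotic progenitors, and ciliated cells cover the ventral surface and line the nephridia, the excretory organs. In droplet libraries, RNA freed from broken cells is captured in every droplet, so barcodes with few UMIs show which contigs were abundant as free RNA.

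A cell was a barcode with 200 to 2500 genes and at least 1000 UMIs, and an empty droplet a barcode with 1 to 99 UMIs. There were 5166 cells at 0 hpa, 3052 at 6 hpa, 4079 in the 18 hpa anterior library, 4714 in the 18 hpa posterior library and 6935 in the unc-22 library. The median cell held 1974 UMIs at 6 hpa, against 3643 to 4085 in the other libraries. At 6 hpa, barcodes of 100 to under 1000 UMIs took 53.9% of all UMIs, against 1.44% to 3.58% in the others. The median share of mitochondrial UMIs per cell was 10.9% at 6 hpa and 9.15% to 11.5% in the others. Pairs of libraries shared 0 to 11 cell barcodes. All 8 mitochondrial contigs were higher at 6 hpa than in the mean of the other libraries, as were 2562 of the 9070 contigs. The median log2 ratio was 0.62 over the 8, against -0.34 over the 9070 contigs, and none of the 8 was a member. The part of these facts in the members' levels was not tested.

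Together the members took 0.0601% of the UMIs of cells at 0 hpa, 0.560% at 6 hpa, 0.0576% in 18 hpa anterior cells, 0.0486% in 18 hpa posterior cells and 0.0328% in unc-22 cells. The median member had 22.96 CPM at 6 hpa, against 1.51 at 0 hpa, 1.93 and 1.49 in the 18 hpa anterior and posterior libraries and 0.89 in the unc-22 library. The highest of the other libraries was 18 hpa anterior for 47 members, 0 hpa for 35, 18 hpa posterior for 24 and unc-22 for 4. The smallest ratio, that of 6 hpa to the highest other library, ran between 4.00 and 47.1 with a median of 6.55.

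The member farthest above the other libraries was dd_2193, with 0.65 CPM at 0 hpa, 154.1 at 6 hpa, 2.29 and 1.41 at 18 hpa in anterior and posterior cells and 0 UMIs in unc-22 cells, where 3 UMIs would be 0.119 CPM. Its 1121 UMIs at 6 hpa came from 138 cells. dd_877 had 1.86 CPM at 0 hpa, 95.1 at 6 hpa, 1.39 in 18 hpa anterior, 1.82 in 18 hpa posterior and 0.56 in unc-22 cells. dd_357 had 2.81, 133.2, 3.44, 2.40 and 0.28 CPM in the same order. These 3 were the only members whose ratio exceeded 30, and the next 17 in rank, dd_2937, dd_1329, dd_2323, dd_3494, dd_351, dd_6041, dd_2423, dd_2320, dd_298, dd_6938, dd_1317, dd_1988, dd_5255, dd_2518, dd_3642, dd_8127 and dd_3606, had ratios between 10.3 and 22.6.

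Rank by ratio and rank by level picked different members. The highest level was that of dd_194, with 132.6 CPM at 0 hpa, 647.8 at 6 hpa, 84.5 and 72.3 in the 18 hpa anterior and posterior libraries and 37.9 in the unc-22 library. dd_1404 followed with 43.2, 349.6, 53.5, 40.2 and 28.1 CPM in that order. dd_181 had 66.3 at 0 hpa, 314.8 at 6 hpa and between 43.0 and 74.7 in the 18 hpa libraries. dd_351 had 227.7 at 6 hpa and at most 13.7 elsewhere, and dd_1 had 218.2 at 6 hpa and at most 33.9 elsewhere. Of these 5, only dd_351 was among the 20 members with the highest ratio.

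Just inside the threshold lay dd_6927 with a ratio of 4.10, dd_7130 with 4.06 and dd_4547 with 4.00. dd_1426 with 3.997, dd_6760 with 3.94 and dd_5099 with 3.804 lay just outside it and are not members. At 6 hpa dd_4547 had 30.1 CPM, and dd_1426 had 19.4.

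**Figure D1:**
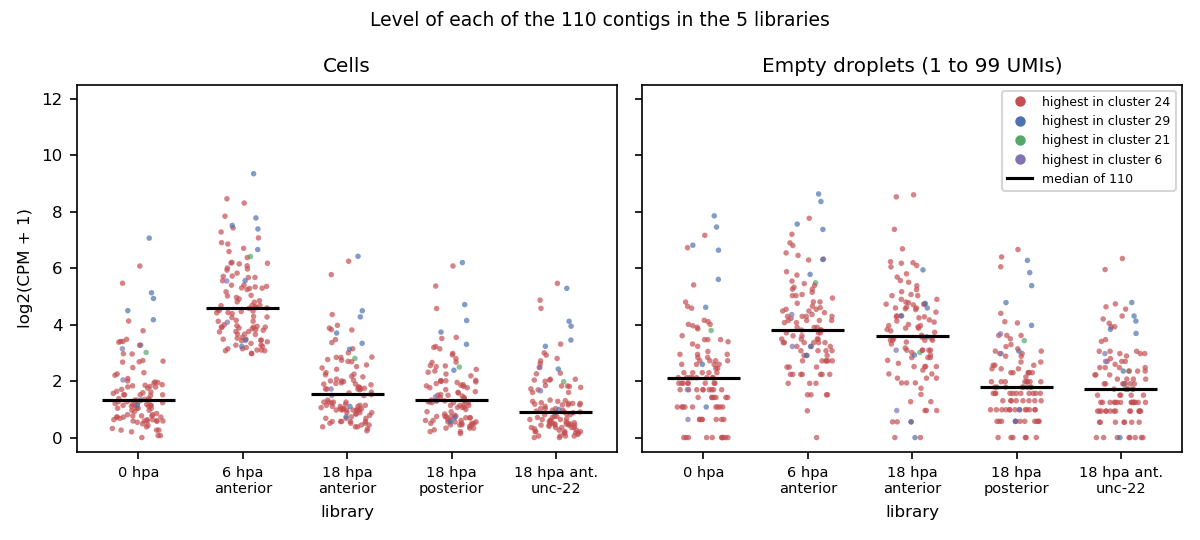
Level of each of the 110 contigs, as log2(CPM + 1), in cells (left) and in empty droplets of 1 to 99 UMIs (right) of each library. Points are contigs coloured by the cluster where they were highest at 6 hpa, bars are medians over the 110: in cells only 6 hpa stands high, whereas in empty droplets the 6 hpa and 18 hpa anterior libraries lie close, with medians of 13.0 and 11.1 CPM.

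Empty droplets, which the rule did not use, gave another order of the libraries. In them the members took 0.145% of UMIs at 0 hpa, 0.357% at 6 hpa, 0.280% in the 18 hpa anterior library, 0.0822% in the 18 hpa posterior library and 0.0629% in the unc-22 library. The ratio of 6 hpa to the highest other library had a median of 0.977 over the members and of 0.320 over the 9070 contigs. It reached 4 in 2 members, against 0.0331% of the 9070 contigs, and 2 in 21 members, against 0.452% of the contigs, and it was below 1 in 56 members. The highest other library was 18 hpa anterior for 80 of the 110. Without that library the median became 2.46. The bin of 1 to 99 UMIs may not hold the same kind of droplet in each library. At 6 hpa, 67061 barcodes held 100 to under 500 UMIs, against 745 to 5592 in the other libraries. In these barcodes the members had 2347 CPM at 6 hpa and 819.0 in the 18 hpa anterior library. The other libraries had 962.2 to 1534. Whether these barcodes were empty droplets was not tested, so the closeness of 6 hpa and 18 hpa anterior holds for the bin of 1 to 99 UMIs only.

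The 2 members above 4 in empty droplets were dd_877 and dd_357. In empty droplets dd_357 had 5.03 CPM at 0 hpa, 78.9 at 6 hpa, and 6.12, 3.92 and 7.31 in the 18 hpa anterior, posterior and unc-22 libraries. dd_2193, first by ratio in cells, had 91.9 in the empty droplets of 6 hpa and 73.9 in those of 18 hpa anterior, and at most 5.03 in the other 3. dd_351 had 117.9 CPM in the empty droplets of 6 hpa and 164.7 in those of 18 hpa anterior, and 11.3 to 26.8 in the other 3.

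In the 18 hpa anterior library the median log2 ratio of cells to empty droplets was -1.92 over the members and 0.18 over the 9070 contigs. There, 53 members were at least 4-fold lower in cells than in empty droplets, against 0.75% of the 9070 contigs. At 6 hpa the same log2 ratio was 0.86 over the members and 1.11 over the contigs. dd_2193 had 154.1 CPM in cells and 91.9 in empty droplets at 6 hpa, against 2.29 and 73.9 in the 18 hpa anterior library. The rule required members to be low, relative to 6 hpa, in cells of each other library. The differences from all contigs in the 18 hpa anterior library therefore follow in part from that choice.

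To see which cells held the members, cells of all libraries were clustered on 2000 variable contigs from which the members had been left out. There were 31 clusters. At 6 hpa, 99 members were highest in cluster 24, 8 in cluster 29, 2 in cluster 6 and 1 in cluster 21. Summed over all libraries, 99, 8 and 1 members were highest in clusters 24, 29 and 21. Cluster 24 held 189 of the 3052 cells at 6 hpa (6.19%, 95% exact binomial interval 5.36 to 7.11), against 35 cells (0.678%) at 0 hpa, 21 (0.515%) and 31 (0.658%) in the 18 hpa anterior and posterior libraries and 59 (0.851%) in the unc-22 library. These intervals cover counting error only. The median member had 90.3% of its 6 hpa UMIs in cluster 24. At 6 hpa, 99 members were at least 4-fold higher in cluster 24 than in all other cells, against 11.7% of the 9070 contigs. In 6 hpa cells of the cluster, 88 members were at least 4-fold higher than in its cells of the other 4 libraries summed, against 5.91% of the contigs. Of those 9070 contigs, 13.3% were highest in cluster 24 at 6 hpa. The rule chose members by 6 hpa sums that lay mostly in cluster 24, so the excess over 5.91% follows in part from the choice. The cluster's mix of cells also differed between libraries, as described below.

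Markers did not give cluster 24 a single name. Most ciliated markers were picked by human names that are in doubt, as described below. The epidermal lineage markers were recalled from cell atlases and an earlier report of these data. Of 19 contigs taken as markers of ciliated cells, 15 led in cluster 24, and so did 4 of 5 markers of the epidermal lineage that were not members. All 3 nephridia markers were at 0 in its 6 hpa cells. Whether a marker led was judged on the mean over libraries, not at 6 hpa alone. The 6 epidermal lineage markers, 1 of them a member, summed to 1019 CPM in its 6 hpa cells, against 8497 in the other cells. The member, dd_364, had 281 of the 388506 UMIs of these 6 hpa cells. In the other libraries the 6 summed to 837 to 6030 CPM in cluster 24, against 15368 to 22692 outside it. At 6 hpa its cells held 2005 CPM of the ciliated markers, against 121.8 in the other cells, and 2 of the 19 were at 0. Clusters 17 and 23, where most ciliated markers also led, held 1930 CPM of them at 6 hpa, over 11 and 7 cells. In the other libraries clusters 17 and 23 held 3682 to 4464 CPM, against 244 to 1158 in cluster 24. With all libraries summed, 95 of the 99 members were at least 4-fold higher in cluster 24 than in clusters 17 and 23, against 7.7% of the 9070 contigs. In cluster 21, where 14 of the ciliated markers led, the same comparison gave 92 of the 99, against 6.42% of the contigs. The 99 were picked as highest in cluster 24 at 6 hpa, so these counts follow in part from that choice. Cells of 6 hpa were also most of cluster 24 (189 of 335) but few of clusters 17 and 23. The median mitochondrial share in the 6 hpa cells of cluster 24 was 3.51%. No doublet caller was run, and the upper limit on genes was the only step against doublets.

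**Figure D2:**
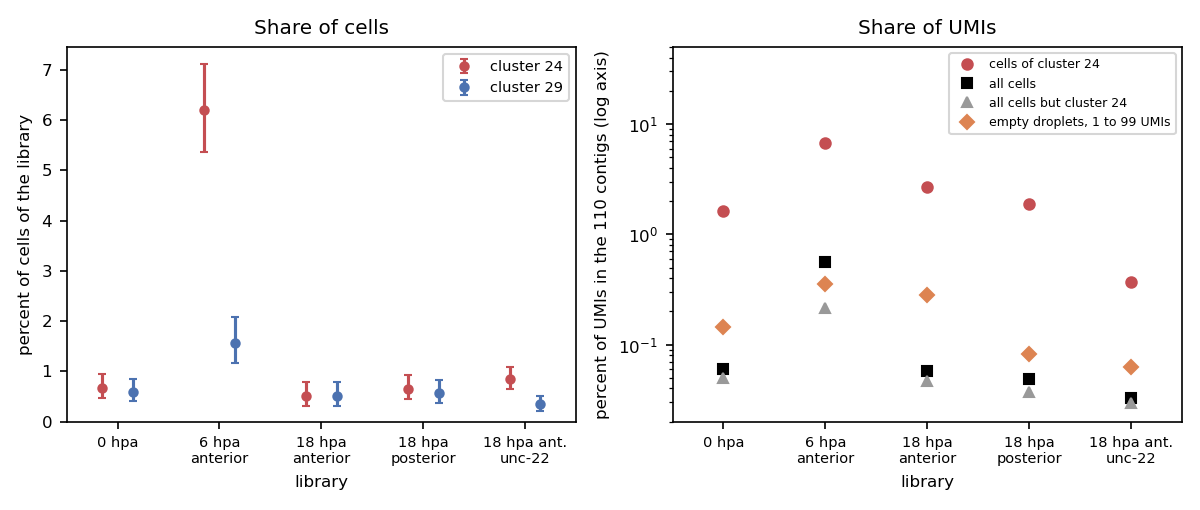
Left, percent of each library's cells in clusters 24 and 29, with 95% exact binomial intervals: cluster 24 held 6.19% of cells at 6 hpa and under 1% in every other library. Right, percent of UMIs in the 110 contigs (log axis) in cells of cluster 24, in all cells, in all cells but cluster 24 and in empty droplets: with cluster 24 left out, 6 hpa cells still held 0.213%.

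Leaving out cluster 24, a choice made after seeing the data, left few contigs past the rule. The summed share of the members then was 0.0498% at 0 hpa, 0.213% at 6 hpa and 0.0473%, 0.0373% and 0.0297% in the 18 hpa anterior, posterior and unc-22 libraries, and 12 contigs met the rule. Of the 99 members highest in cluster 24, the ratio stayed at 4 or above in 2, dd_877 with 4.71 and dd_357 with 4.16, and it fell under 2 in 74. dd_2193 kept a ratio of 2.91. All 11 members highest in other clusters had ratios between 4.32 and 11.05 without it.

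Cells were also counted by the members they held, which the choice of members at 6 hpa directs. Cells with a UMI of at least 10 members numbered 24 of 5166 (0.465%) at 0 hpa, 218 of 3052 (7.14%, interval 6.25 to 8.11) at 6 hpa, 19 (0.466%) and 16 (0.339%) in the 18 hpa anterior and posterior libraries and 20 (0.288%) in the unc-22 library. After thinning every cell to 1000 UMIs, cells with at least 5 members were 45 (0.871%), 259 (8.49%), 32 (0.785%), 29 (0.615%) and 31 (0.447%) in the same order. Of the unthinned cells, 185 of the 218 at 6 hpa were in cluster 24, against 12 of 24 at 0 hpa, 9 of 19 and 10 of 16 in the 18 hpa anterior and posterior libraries and 4 of 20 in the unc-22 library.

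Cells with many members were few outside 6 hpa, but the median share of their UMIs in members was similar in most libraries. In cells with at least 10 members the median share was 6.20% at 0 hpa, 6.39% at 6 hpa, 6.07% and 5.98% in the 18 hpa anterior and posterior libraries and 1.54% in the unc-22 library. Summed over the same cells, the shares differed more. They were 3.81% at 0 hpa, 6.14% at 6 hpa, 4.49% and 5.20% in the 18 hpa anterior and posterior libraries and 2.80% in the unc-22 library. Having 10 members selected these cells, which sets a floor to the shares.

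Cluster 24 was divided into 2 sets of cells by the contigs that led in it, dd_680, dd_5204 and dd_399, none a member. Cells with at least 3000 CPM of these 3 numbered 15 at 0 hpa, 10 at 6 hpa, 9 and 21 in the 18 hpa anterior and posterior libraries and 34 in the unc-22 library, 0.221% to 0.490% of cells in every library. The other cells of the cluster numbered 20 (0.387%) at 0 hpa, 179 (5.87%) at 6 hpa, 12 (0.294%) and 10 (0.212%) at 18 hpa and 25 (0.360%) in the unc-22 library. The split was made after seeing the data. It places nearly all of the larger share of cluster 24 at 6 hpa in the cells without these 3 contigs.

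In the cells without the 3 contigs the members took a median of 2.53% of UMIs at 0 hpa, 6.77% at 6 hpa, 4.08% and 7.19% in the 18 hpa anterior and posterior libraries and 0.0237% in the unc-22 library. Single cells overlapped between libraries. Shares ran between 0.245% and 13.8% at 6 hpa, against 0% to 15.1% at 0 hpa, 0% to 10.98% and 0% to 14.8% at 18 hpa and 0% to 10.7% in unc-22 cells. At 6 hpa 177 of 179 cells had at least 10 members, against 11 of 20, 7 of 12, 9 of 10 and 4 of 25 in the other libraries, in the order 0 hpa, 18 hpa anterior, posterior and unc-22. The ciliated markers stood at 2114 CPM in these 6 hpa cells and at 1204, 1370, 2791 and 441 in those of the other 4 libraries. The members' summed shares of UMIs, 6.66% at 6 hpa and 2.85%, 4.49%, 7.63% and 0.590% in the other 4, ranked the libraries in the same order as these markers. The part of the markers' cells in the members' levels was not tested.

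**Figure D3:**
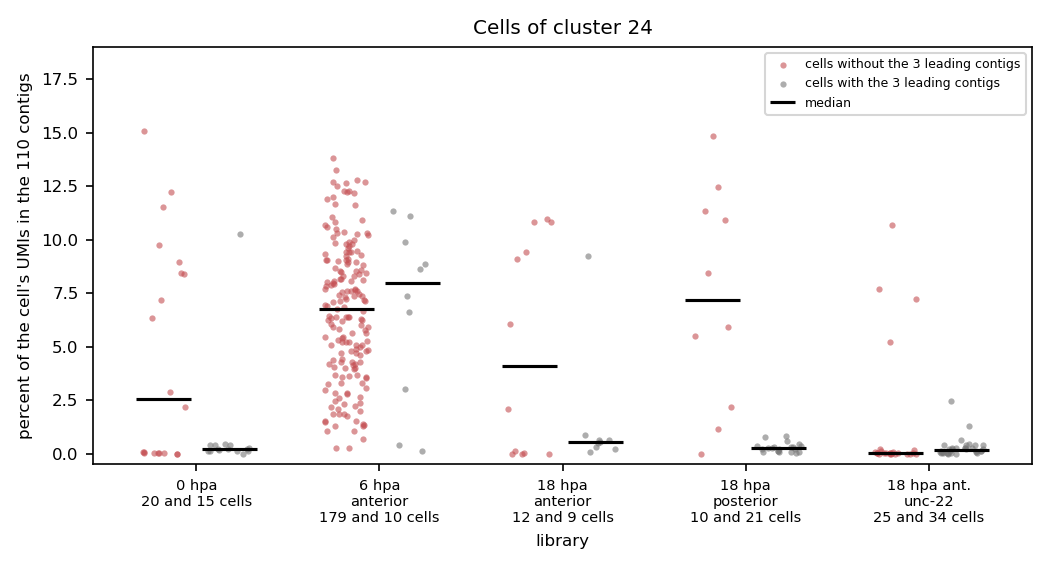
Percent of each cell's UMIs in the 110 contigs, for every cell of cluster 24, by library and by whether the cell had at least 3000 CPM of dd_680, dd_5204 and dd_399 summed. Cells of 6 hpa without these 3 contigs spread up to 13.8%, and single cells of each other library reached above 10%, whereas most cells with the 3 contigs lay under 1% outside 6 hpa.

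Within the class or cluster where a member was highest at 6 hpa, and over libraries with at least 20 of its cells, 20 of the 110 members were at least 4-fold higher at 6 hpa than in each other library, against 1.31% of the 9070 contigs. The median ratio was 2.27, and 8 members were below 1. The rule used the same ratio over all cells of each library. The excess over 1.31% therefore follows in part from the choice of members. In cluster 24 as a whole the median ratio of its 99 members was 2.30. With cluster 24 split, and over libraries with at least 5 cells, 77 members were highest at 6 hpa in the cells without the 3 contigs. There their ratios ran between 0.22 and 5.05 with a median of 0.90, and 2 of them, dd_12591 and dd_4547, reached 4. These counts moved with the units chosen: 66 members reached 4 with clusters at resolution 2, and 96.4% of the members when a library needed at least 50 cells of the unit, which, beside 6 hpa, only the unc-22 library had in cluster 24.

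The other 22 members of cluster 24 were highest at 6 hpa in the 10 cells with the 3 contigs, and there the ratios ran between 0.85 and 225.3 with a median of 7.63. With the split, 23 of the 110 members reached 4 in all, against 4.91% of the 9070 contigs. This excess too follows in part from the choice of members. The 10 cells held a median of 29 members, and 8 of them held at least 10, against 1 of 15 at 0 hpa, 2 of 9 and 1 of 21 in the 18 hpa anterior and posterior libraries and 0 of 34 in the unc-22 library. The 93 members that were common in the cluster took 2.63% of the UMIs of these 10 cells, against 0.118%, 1.03%, 0.0480% and 0.0396% in such cells of 0 hpa, 18 hpa anterior, 18 hpa posterior and unc-22. In the cells without the 3 contigs, the median ratio of the 93 at 6 hpa to the other libraries summed was 2.60. Of that sum, unc-22 cells held 93029 UMIs, against 57292 at 0 hpa and 24812 and 25437 in the 18 hpa anterior and posterior libraries. The members were chosen for their 6 hpa level, so this ratio is a description. Doublets between the 2 sets were not tested.

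Of the 99 members, 6 were each found in fewer than 7% of cluster 24 cells at 6 hpa: dd_3065, dd_3871, dd_5927, dd_12648, dd_12017 and dd_13286. They occurred together, as 8 of the 189 cells held 3 or more of them and 99.3% of their UMIs in the cluster. The same 8 cells held 2.34% of the UMIs of the other members and 205.8 CPM of the ciliated markers, against 2100 in the other 6 hpa cells of the cluster. The median of the 99 was found in 38.6% of the cluster's 6 hpa cells and in 0.454% of other 6 hpa cells.

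Cells with 3 or more of these 6 contigs took similar shares of the libraries, but the levels in them differed. They numbered 11 of 5166 (0.213%) at 0 hpa, 9 of 3052 (0.295%, interval 0.135 to 0.559) at 6 hpa, 10 (0.245%) and 14 (0.297%) in the 18 hpa anterior and posterior libraries and 13 (0.187%) in the unc-22 library. In them the 6 contigs stood at 7203 CPM at 0 hpa, 54315 at 6 hpa, 4850 and 3185 in the 18 hpa anterior and posterior libraries and 3425 in the unc-22 library. dd_3065 had 20671 CPM in the 6 hpa cells, against 3172 at 0 hpa and 1228 to 2352 in the 18 hpa libraries. dd_5927 had 7128 at 6 hpa, against 317.2 at 0 hpa and 60.7 to 229.0 in the 18 hpa libraries. dd_3871, dd_12648, dd_12017 and dd_13286 were likewise highest in the 6 hpa cells.

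The 6 were chosen for their 6 hpa level, and 94.9% of their 6 hpa UMIs lay in these cells, so their order of libraries is a description.

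Of 5 contigs that lead in these cells and are not members, dd_3234 was also highest at 6 hpa, with 25756 CPM against 4188 to 8264 in the other libraries. dd_680 had 24558 CPM at 0 hpa, 10216.7 at 6 hpa and 12729 to 26647 in the 18 hpa libraries. dd_399 had 9266 at 6 hpa, against 7571 to 12315 in the other libraries, and dd_7515 had 3707, against 3284 to 4312. Having 3 of the 6 contigs selected the cells, and these values rest on 9 to 14 cells of each library, with a median of 2161 UMIs a cell at 6 hpa and 3874 to 4825 elsewhere.

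**Figure D4:**
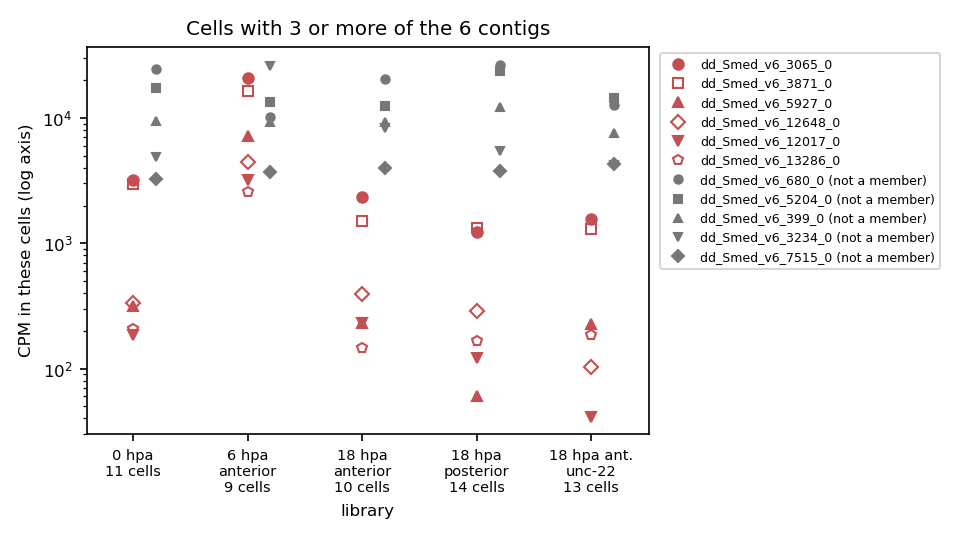
Level of 6 member contigs (red) and of 5 contigs that are not members (grey), in CPM on a log axis, in the cells of each library with 3 or more of the 6. All 6 members were highest at 6 hpa, dd_3065 at 20671 CPM, as was dd_3234 at 25756 CPM, while dd_680, dd_5204, dd_399 and dd_7515 were each higher in another library.

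The 8 members highest in cluster 29 were dd_194, dd_1, dd_100, dd_75, dd_215, dd_396, dd_7343 and dd_2361. The cluster, led by dd_44, dd_48 and dd_20, had too few leading markers for a name. dd_75 was itself on the list of intestine markers. Cells of cluster 29 made up 0.600% of cells at 0 hpa, 1.57% (48 cells, interval 1.16 to 2.08) at 6 hpa, 0.515% and 0.573% in the 18 hpa anterior and posterior libraries and 0.346% in the unc-22 library.

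Within cluster 29 no member was 2-fold higher at 6 hpa than in the highest other library. dd_194 had 24647 CPM at 0 hpa, 22507 at 6 hpa, 16242 and 11099 in the 18 hpa anterior and posterior libraries and 9867 in the unc-22 library. dd_1 had 6721 at 0 hpa, 7585 at 6 hpa and 3817 to 5223 at 18 hpa. A contig annotation gives dd_1 a Granulin domain, found in secreted cysteine-rich peptides of animals. dd_100 had 4129 at 0 hpa, 6890 at 6 hpa and 2132 to 2746 at 18 hpa. The ratio of 6 hpa to the highest other library in the cluster was between 0.91 and 1.67 for the 8, with a median of 1.19.

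In empty droplets all 8 were highest at 6 hpa, and 0 hpa came next for each but dd_7343, for which unc-22 did. dd_194 had 229.6 CPM at 0 hpa, 393.6 at 6 hpa, and 60.2, 76.4 and 26.5 in the 18 hpa anterior, posterior and unc-22 libraries. dd_1 had 174.3, 326.7, 25.9, 56.3 and 18.7 in the same order. dd_100 had 111.2 at 0 hpa and 187.5 at 6 hpa, against 13.2 to 26.4 in the 18 hpa libraries.

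**Figure D5:**
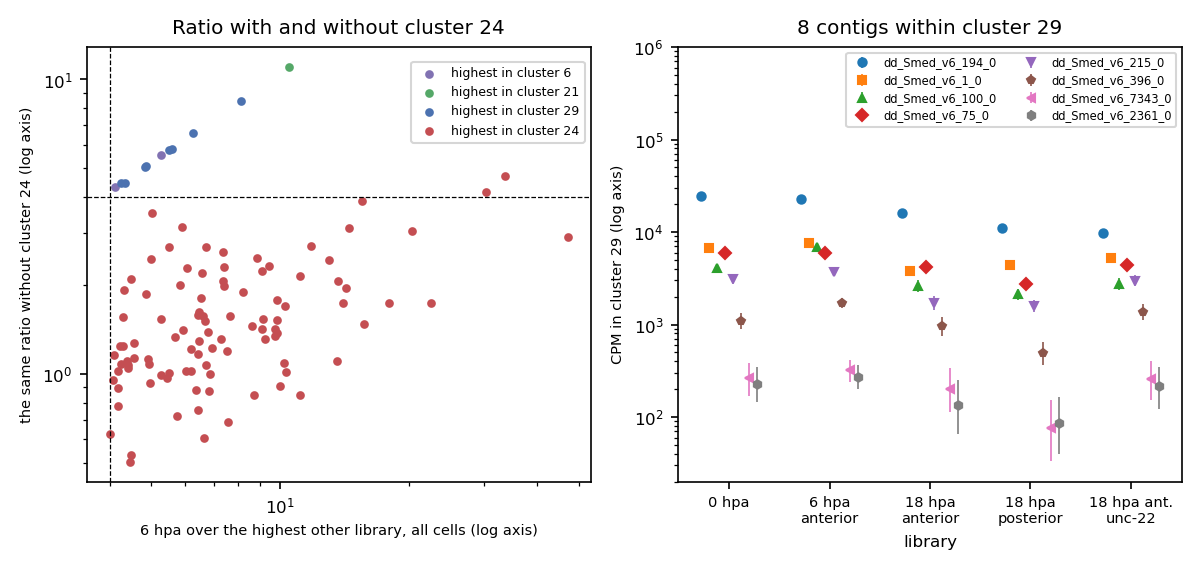
Left, ratio of 6 hpa to the highest other library for each of the 110 contigs, in all cells (x) and with cluster 24 left out (y), both on log axes with dashed lines at 4: of the contigs highest in cluster 24, 2 stay above the line. Right, level of the 8 contigs of cluster 29 within that cluster, in CPM on a log axis with 95% exact Poisson intervals: dd_194 had 22507 at 6 hpa and 24647 at 0 hpa.

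The 3 remaining members rested on few cells. dd_447 was found in 15 cells at 6 hpa, and 62.7% of its UMIs came from 1 cell. dd_9342 was found in 9 cells, with 53.4% of its 116 UMIs in 1 cell. dd_3642, highest in cluster 21, was found in 48 cells, with 25.04% of its 611 UMIs in 1 cell. Over all members the median was 84.5 cells at 6 hpa, and the median share in the highest cell was 4.96%.

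Classes of cells were then compared with all other cells of the same libraries, by edgeR's quasi-likelihood test on UMIs summed per library with the library as a block and Benjamini-Hochberg adjustment over all contigs tested. This split was not used by the rule, and the members took no part in the clustering. Members are counted as called at an adjusted p under 0.05. In epidermal lineage-like cells 72 of 110 members passed the filter on low counts, of which 2 were called higher and 51 lower, against 28.3% higher and 33.1% lower over all contigs. In intestine-like cells 33 passed, 4 higher and 22 lower (all contigs 21.3% and 31.1%). In muscle-like cells 36 passed, 1 higher and 33 lower (20.7% and 26.1%). In neoblast-like cells 29 passed, none higher and 23 lower (28.6% and 33.3%). In neuron-like cells 41 passed, 2 higher and 28 lower (22.9% and 27.5%). For the 0 higher in neoblast-like cells, DESeq2 also gave 0, and 23 members in all had an unadjusted p under 0.05. The other cells of each test include cluster 24, where 99 members were highest at 6 hpa. Calls of lower therefore follow in part from the choice of members. The log2 fold changes and p-values of single members below include 6 hpa, except for parenchyma-like cells. Without the 6 hpa library, which chose the members, 7 of 65 were higher and 43 lower in epidermal lineage-like cells, 5 of 49 and 32 in intestine-like, 1 of 51 and 37 in muscle-like, 2 of 53 and 36 in neoblast-like, and 6 of 57 and 33 in neuron-like cells.

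Different clusters made up some classes at 6 hpa. Of the 843 epidermal lineage-like cells at 6 hpa, 748 were in cluster 15, which held 3 cells at 0 hpa and 2, 5 and 16 in the 18 hpa anterior, posterior and unc-22 libraries. Of the 613 neoblast-like cells at 6 hpa, 601 were in cluster 19, which held 0 cells at 0 hpa and 7, 14 and 19 at 18 hpa. The part of this in the class tests was not tested. With clusters at resolution 2, 15 were higher and 16 lower in epidermal lineage-like cells, and with only cells under 10% mitochondrial UMIs, 1 was higher and 9 lower in intestine-like cells.

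The 2 members higher in epidermal lineage-like cells were dd_18 and dd_364, the second also a marker used for that lineage. dd_18 had 8.64 CPM in these cells and 4.97 in the others at 0 hpa, 102.9 and 120.4 at 6 hpa, 37.0 and 8.90 in the 18 hpa anterior library, 41.9 and 7.57 in the posterior library and 38.2 and 5.43 in the unc-22 library. It was higher in 4 of 5 libraries, with a log2 fold change of 1.72 ± 0.44 (SE, edgeR adjusted p = 0.00899). dd_364 had a log2 fold change of 1.46 ± 0.40 (edgeR adjusted p = 0.0130), again with 6 hpa the exception, at 56.8 in the class and 61.5 in other cells. At 6 hpa 65.8% of the UMIs of dd_18 were in cluster 24. The largest falls in the class were those of dd_396, dd_3494 and dd_447, with log2 fold changes of -5.67 ± 0.27, -5.51 ± 0.45 and -5.50 ± 0.40 (edgeR adjusted p = 4.69e-07, 9.92e-06 and 4.75e-06).

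In intestine-like cells the members with the largest rise were dd_181, dd_2867 and dd_2266, with log2 fold changes of 3.15 ± 0.55, 2.38 ± 0.47 and 1.79 ± 0.44 (edgeR adjusted p = 0.000226, 0.000633 and 0.00343). dd_181 had 362.5 CPM in this class and 43.8 in other cells at 0 hpa, 553.2 and 44.4 in the 18 hpa anterior library, 375.7 and 44.1 in the posterior library and 327.7 and 21.7 in the unc-22 library. At 6 hpa the order turned round, with 81.6 in the class and 327.7 in other cells, and 81.5% of its 6 hpa UMIs were in cluster 24. dd_1200, dd_3991 and dd_6142 had 0 UMIs in intestine-like cells of all 5 libraries and 2.61 to 74.99 CPM in the other cells.

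In neuron-like cells dd_447 and dd_9342 were the members called higher with all 5 libraries. dd_447 had 85.0 CPM in them and 0.28 in other cells at 0 hpa, 344.8 and 1.42 at 6 hpa, 13.7 and 0.35 in the 18 hpa anterior library, 9.82 and 0.76 in the posterior library and 41.9 and 0.31 in the unc-22 library. Its log2 fold change was 6.63 ± 0.48 and that of dd_9342 was 5.48 ± 0.38 (edgeR adjusted p = 1.55e-06 and 1.16e-06), with the class higher in 5 of 5 libraries for both. dd_75, dd_2778 and dd_194 were lowest, with log2 fold changes of -4.86 ± 0.29, -4.81 ± 0.65 and -4.77 ± 0.18 (edgeR adjusted p = 4.41e-07, 0.000140 and 3.45e-08).

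In muscle-like cells dd_1914 was called higher, with a log2 fold change of 0.84 ± 0.22 (edgeR adjusted p = 0.00599). It had 21.1 CPM in the class and 9.56 in other cells at 0 hpa and 89.8 and 71.1 at 6 hpa. The levels were 20.98 and 9.15 in the 18 hpa anterior library. They lay closer in the posterior library (9.73 and 7.70) and the unc-22 library (7.18 and 6.99). dd_18, dd_3065 and dd_447 were lowest, with log2 fold changes of -6.58 ± 0.50, -5.37 ± 0.65 and -4.63 ± 0.72 (edgeR adjusted p = 6.06e-08, 7.94e-06 and 9.63e-05). In neoblast-like cells dd_3571, dd_75 and dd_817_1 were lowest, with log2 fold changes of -5.08 ± 0.45, -4.85 ± 0.27 and -4.74 ± 0.34 (edgeR adjusted p = 2.25e-06, 7.54e-08 and 4.60e-07).

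Parenchyma-like cells reached 20 cells only at 0 hpa and in the 18 hpa anterior and posterior libraries, so this test held no 6 hpa cells. With 3 libraries, its small p-values rest on a spread shared across contigs. In it 62 members passed the filter, 8 higher and 7 lower, against 14.0% and 23.0% over all contigs. The largest rises were in dd_4986, dd_7130 and dd_2080, with log2 fold changes of 6.23 ± 0.94, 5.60 ± 0.55 and 4.71 ± 0.58 (edgeR adjusted p = 4.00e-10, 1.58e-22 and 8.41e-15). dd_7130 had 112.8 CPM in the class and 1.37 in other cells at 0 hpa, 72.8 and 2.07 in the 18 hpa anterior library and 58.7 and 1.94 in the posterior library. At 6 hpa 83.0% of its UMIs were in cluster 24. dd_194, dd_1 and dd_75 had 0 UMIs in these cells of the 3 libraries and 16.8 to 134.0 CPM in the others.

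Few members could be named. The part of a contig annotation that was read here holds 4 of the 110 and pairs 1 with a human gene, dd_10602 with SLC26A5, which in mammals encodes prestin, an anion-transporter family protein of outer hair cells. A second annotation gave other names for all 461 contigs named in both, so this pairing is in doubt. The same doubt holds for the class markers and gene lists that were picked by these names. dd_10602 had 0.60 CPM at 0 hpa, 14.98 at 6 hpa and 0.52 to 1.39 at 18 hpa, and 4.64 in empty droplets at 6 hpa against 10.4 in those of 18 hpa anterior.

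Lists of chaperones and stress proteins, early response and TRAF signaling, ribosomal proteins and extracellular matrix were drawn from named contigs, so most members could not have been on them. Of those lists 9 of 16, 12 of 22, 2 of 12 and 4 of 8 contigs reached 50 UMIs at 6 hpa. Of these, 4, 4, 1 and 1 were higher at 6 hpa than the mean of the other libraries, against 2562 of all 9070 contigs. The median log2 ratios of the lists were -0.27, -0.31, -0.15 and -0.53, close to the -0.34 of all contigs, against 2.998 for the members. equinox (dd_20318), the wound-induced gene of the study, had 2.21 CPM at 0 hpa, 8.52 at 6 hpa, 8.62 and 6.10 in the 18 hpa anterior and posterior libraries and 15.3 in the unc-22 library, and is not a member.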

How the data were processed

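The authors sequenced droplet libraries (10x Genomics) of sorted planarian cells, 1 library for each of 5 conditions. The submitters' processing notes name CASAVA 1.9, Cell Ranger and Seurat, and reads were assigned to Smed_v6 transcripts placed on the Smes_g4 assembly. The deposited values are raw, unfiltered UMI counts for 28040 contigs per barcode, so empty droplets could be read as well as cells. The files carry no gene names, and sequences were not used here.

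Counts were summed over barcodes with 200 to 2500 genes and at least 1000 UMIs (cells) and over barcodes of 1 to 99 UMIs (empty droplets), as CPM, with 1 added for ratios. Total UMIs per library ran between 21746895 at 6 hpa and 37981205. Intervals are exact (binomial for shares, Poisson for counts) at 95% and cover counting error only. Cells were clustered with scanpy 1.11.5 and leidenalg 0.10.2 (2000 variable contigs without the members, 11 components, 20 neighbours, resolution 1). A cluster was called X-like when at least 3 markers of a class led in it, at least 2-fold with 10 CPM added, and left unnamed when at least 3 and at least 0.5 of the markers of a second class led too, or when another class had more markers among the top 10 contigs. Class markers came in part from human names in the annotation, which are in doubt. The others were recalled from planarian cell atlases and an earlier report of these data. No doublet caller was run.

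Class tests used edgeR 4.0.16 in R 4.3.3 on counts summed per library, with TMM factors, filterByExpr, the library as a block and libraries with at least 20 cells of the class. The libraries pair class and other cells by construction, since both come from the same library. DESeq2 1.42.0 was an alternative. Tested on simulated data, edgeR recovered 83% of changes of 1 and 100% of changes of 2 on the log2 scale in epidermal lineage-like cells. In intestine-like cells it recovered 75% and 100%. The simulation had a fixed spread and no differences between libraries, and it changed only contigs above a minimum expected count. Recovery in the data, and for members with low counts, was not tested. With 1 library per condition, the spread in these tests is that between libraries. edgeR shares this estimate across contigs, so a p-value does not measure the spread of that contig alone.

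Named contigs were the 20 members with the highest ratio, the 5 with the highest 6 hpa level, 3 on each side of the threshold, up to 3 called members with the largest change in each direction per class, members that an annotation names, equinox and the mitochondrial contigs. Contigs chosen after their values were seen are the 6 rare ones, those of clusters 6, 21 and 29, dd_12591, and the leading contigs of clusters 24 and 29. The members and lists were chosen with earlier results of these data known. Alternatives covered the ratio, the number added, cell limits, scaling, thinning, resolution and each library left out.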

Additional observations from a re-analysis of the deposited data

Results flagged for a closer look

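Barcodes that the rule did not use held the members at higher levels at 6 hpa than at 0 hpa. In barcodes over 2500 genes the members together had 2065 CPM at 6 hpa and 417.1 at 0 hpa, and between 277.5 and 586.3 at 18 hpa. In barcodes of 500 to under 1000 UMIs they had 3269 at 6 hpa and 1870 at 0 hpa, with 2336.8, 2707 and 2688 in the 18 hpa anterior, posterior and unc-22 libraries nearer to 6 hpa. In barcodes of 100 to under 500 UMIs they had 2347 at 6 hpa and 1189 at 0 hpa, and between 819.0 and 1534 at 18 hpa. With 1 library of each, these differences were not tested.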

How the results depend on the processing

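The number of contigs meeting the rule, 110, was 44 with 5 CPM added, 67 at a ratio of 6, 64 after thinning every cell to 1000 UMIs, 12 without cluster 24 and 12 without clusters 24 and 29, the last 2 chosen after seeing the data. Leaving out each library in turn gave 110 to 147. The median ratio in empty droplets, 0.977, ran between 0.977 and 2.46 with each library left out, the highest without 18 hpa anterior. The ratio of dd_5255 fell below 1, to 0.851 without cluster 24 and 0.862 without clusters 24 and 29.

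With no filter on low counts, class tests called 88 members in epidermal lineage-like, 87 in intestine-like, 67 in muscle-like, 96 in neoblast-like and 92 in neuron-like cells, where 53, 26, 34, 23 and 30 were called with it. Without the replicate block, which pairs class and other cells of a library, 17 were called in intestine-like and 18 in muscle-like cells, and no other class moved by over 1.5 times. At resolution 2, 31 were called in epidermal lineage-like cells, and under 10% mitochondrial UMIs 10 in intestine-like cells. With each library left out the calls ran between 50 and 58 in epidermal lineage-like, 25 and 37 in intestine-like, 29 and 38 in muscle-like, 23 and 38 in neoblast-like (the highest without 6 hpa), 29 and 39 in neuron-like and 11 and 12 in parenchyma-like cells. Members at least 4-fold higher within their class or cluster were 18.2% of the members, 60.0% at resolution 2 and 96.4% with at least 50 cells per library. Apart from the change in genes or cells that each alternative makes, the cause was not tested. Each condition has 1 library, and the shallow 6 hpa cells and the few cells of cluster 24 elsewhere limit every ratio.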
